A study of Mus musculus with 2 samples.

Results

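The long noncoding RNAs described here are *Redrum*, *Gm15915*, *Malat1*, *Neat1*, *Gas5* and *Snhg1*. They were chosen by name, with their levels across erythroid stages in these cells already known, so their levels are given as a description with no test. Of the 6, 4 had a row among the 27998 genes of the count matrix: *Redrum* (ENSMUSG00000096982), *Gm15915* (ENSMUSG00000085723), *Malat1* (ENSMUSG00000092341) and *Neat1* (ENSMUSG00000092274). *Gas5* and *Snhg1*, which were matched to no row by symbol or by Ensembl identifier, were not analysed here. The cells came from livers of 7 C57BL/6 mouse embryos at e13.5, which were pooled. Per the study's methods, Ter119-bearing cells were depleted and then returned in a number equal to the remaining cells. The mix of stages was thus set by the preparation and is not that of the liver. The cells were profiled by CITE-seq. This assay reads mRNA and barcoded surface antibodies in the same cell, and it gave 1 cDNA library and 1 antibody library. No treatment, transgene or mutant was involved. The pool was 1 sample, so no value has replicate error and every interval below covers counting error only.

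Long noncoding RNAs are transcripts without a protein product that act in the nucleus or cytoplasm, or host smaller RNAs in their introns. *Malat1* is retained in nuclear speckles, where splicing factors gather, and *Neat1* is the scaffold of paraspeckles, nuclear bodies that it builds together with RNA-binding proteins. *Gas5* and *Snhg1* are spliced hosts of box C/D small nucleolar RNAs, and their processed transcripts are degraded during translation. *Redrum* is a noncoding RNA described in red cell maturation, and *Gm15915* carries only a gene model name. Erythroid cells of the fetal liver first acquire CD71, the transferrin receptor that imports iron, and then Ter119, a glycophorin-associated surface protein, while hemoglobin accumulates, the nucleus condenses and the nucleus is at last expelled.

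Stages were set by the antibody reads, and the oligonucleotide tags that carry this information are printed because the levels below are ordered by them. Each tag is 12 bases long, all of which identify the antibody, hence the capitals.

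Ter119: GAGGCGATTGAT

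CD71: CGAAGAAGGAGT

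cKit: AAGCGCTTGGCA

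Cells low for the 5 antibodies against other lineages were split by Ter119 and then by CD71. S0-low held 1510 cells, low for both, and S0-medium and S1 held 1054 and 612 Ter119-low cells of intermediate and high CD71. S2 held 1297 cells of intermediate Ter119 and high CD71. The Ter119-high cells were S3 with high CD71 (838 cells) and S4/S5 with low CD71 (898 cells). Together the 6 stages held 6209 of 7244 cells that passed the quality limits, and 215 lineage-low cells fell in none.

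Depth and composition changed with the stage. From the earliest to the latest stage the median cell had 6146, 10282, 10152, 6021, 4534 and 3949 UMIs (molecules counted once by their identifier). Globin mRNA took 1.05% of the UMIs in S0-low and 64.0% in S4/S5. All 10 erythroid markers were detected in each stage, and their summed level in counts per 1000000 UMIs (CPM) went up from 4933 at S0-low to 224974 at S4/S5. Most of that sum was globin, and *Gata1* (125 to 70.0 CPM), *Epor* (78.7 to 38.9 CPM) and *Car1* (57.5 to 21.1 CPM) were lower at S4/S5 than at S0-low, while *Klf1* was 259 and 262 CPM. S0-low was mixed, with 20.3% of its cells in clusters named for megakaryocyte-like, myeloid-like, macrophage-like or hepatocyte-like cells, against at most 0.490% in the other stages. Its summed hepatocyte markers were 6118 CPM against 381 to 654 CPM elsewhere, and its summed myeloid markers 680 CPM against 54.0 to 142 CPM, with none of either list at 0.

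The 4 genes lie on 3 chromosomes of GRCm38, the build to which the reads were mapped, by RefSeq's GRCm38.p6 annotation. *Redrum* spans chromosome 18 from 54422295 to 54453294. *Gm15915* spans chromosome 10 from 93674218 to 93683322 and lies within *Ntn4*, a gene of a secreted laminin-related protein. *Gm15915* is on the minus strand and *Ntn4* on the plus strand. In the GENCODE M1 models of the older build mm9, 1 *Ntn4* exon falls within the *Gm15915* span and 0 exons of the pair overlap. *Ntn4* itself had 27 UMIs in the 6 stages together. *Malat1* (5795690 to 5802672) and *Neat1* (5824708 to 5845480) are neighbours on chromosome 19, separated by 22036 bp.

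Promoter windows from RefSeq, 250 bases before to 50 after the start site, were held for *Gm15915* and *Malat1* and for neither *Redrum* nor *Neat1*. They are printed because these RNAs moved in opposite directions across the stages. Capitals mark the letters found of 4 sets searched on both strands, and no match overlapped another. The *Gm15915* window is chr10:93683273-93683572 and the *Malat1* window is chr19:5802623-5802922, both of GRCm38.p6 and on the minus strand.

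Gm15915: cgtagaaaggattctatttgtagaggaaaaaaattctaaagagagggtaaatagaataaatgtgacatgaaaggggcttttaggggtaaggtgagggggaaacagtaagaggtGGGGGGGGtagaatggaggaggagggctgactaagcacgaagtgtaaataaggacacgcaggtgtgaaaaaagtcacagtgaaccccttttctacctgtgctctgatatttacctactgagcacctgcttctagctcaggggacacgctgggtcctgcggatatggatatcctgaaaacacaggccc

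Malat1: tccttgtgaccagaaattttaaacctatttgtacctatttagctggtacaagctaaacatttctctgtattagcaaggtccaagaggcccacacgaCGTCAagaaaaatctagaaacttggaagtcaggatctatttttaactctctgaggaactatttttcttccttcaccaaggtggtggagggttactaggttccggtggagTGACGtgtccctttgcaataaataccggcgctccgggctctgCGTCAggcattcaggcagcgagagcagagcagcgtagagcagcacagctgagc

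The capitals in the *Gm15915* window are a run of G that the CACCC-box letters CCNCNCCC match on the other strand. Those letters occur in 49.5% of all 32851 promoter windows. The capitals in the *Malat1* window are 3 matches to TGACG, the core letters of the cAMP-response element, found in 20.8% of windows. GATAA, the letters of a GATA motif (in 25.4% of windows), were found in neither window. TATAAA, the TATA box (in 13.6% of windows), was also found in neither.

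*Redrum* was low in the earliest cells, highest around S2 and lower again in the most mature cells. Its level, the mean over cells of CPM, was 15.9 CPM in S0-low (95% counting interval 13.1 to 19.2), then 60.0 CPM in S0-medium (53.9 to 66.9) and 110 CPM in S1 (99.9 to 121). It reached 141 CPM in S2 (132 to 150), was 110 CPM in S3 (99.4 to 121) and 42.6 CPM in S4/S5 (35.8 to 50.5). In order of level S2 stood above S1, S3, S0-medium, S4/S5 and S0-low, and S1 and S3 were the neighbours in that order that did not differ beyond counting error (S3 over S1 0.998, 0.873 to 1.14).

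**Figure D1:**
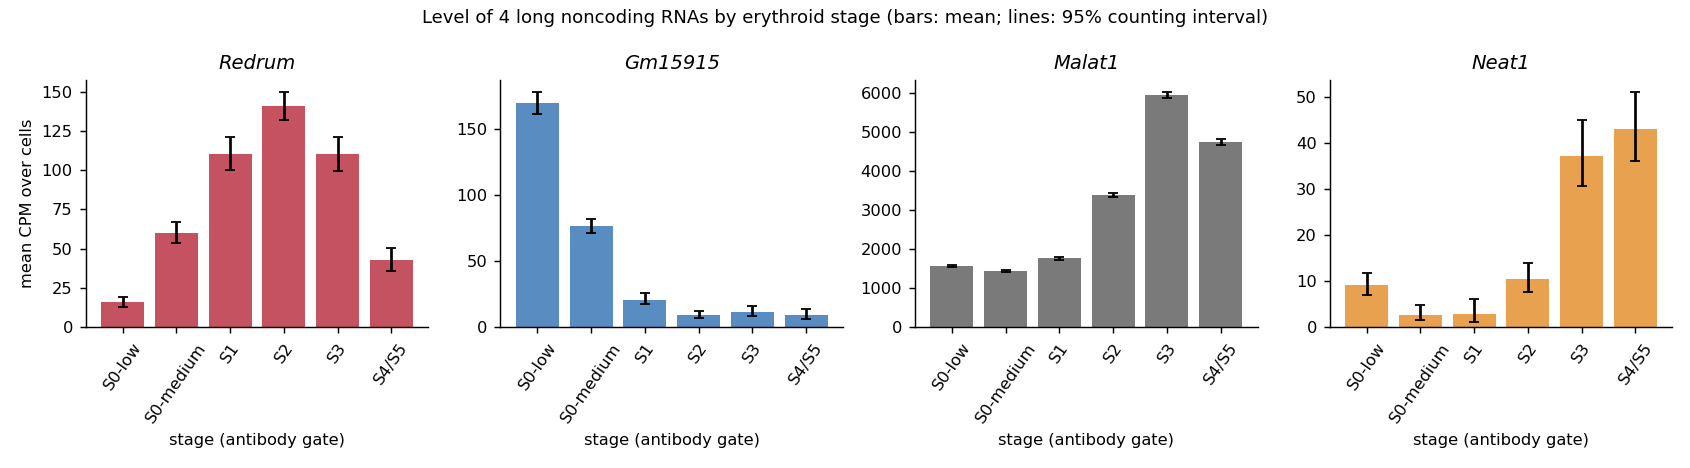
Mean CPM over cells (vertical axes, each from 0 and on its own scale) of Redrum, Gm15915, Malat1 and Neat1 in the 6 antibody-gated stages (horizontal axes). Bars are means and lines 95% counting intervals. Redrum is highest in S2 at 141 CPM, Gm15915 in S0-low at 169 CPM, Malat1 in S3 at 5949 CPM and Neat1 in S4/S5 at 43.0 CPM.

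The position of the *Redrum* maximum depended on the scale. In UMIs per cell, which follow the molecules recovered from a cell, *Redrum* stood at 0.967 in S1 and 0.953 in S2 (ratio of S2 over S1 0.985, 0.893 to 1.09). In CPM with globin left out of the denominator it was 177 in S2 and 188 in S3 (ratio of S3 over S2 1.06, 0.938 to 1.20). The lower level in S4/S5 than in S3 held on each of the 3 scales, with ratios of 0.388 (0.320 to 0.471) in CPM, 0.582 (0.475 to 0.713) without globin and 0.287 (0.239 to 0.344) in UMIs per cell.

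*Redrum* in S0-low was not evenly spread along CD71. When the Ter119-low cells were cut into 5 groups of rising CD71, *Redrum* was 1.22 CPM in the lowest group, from 6 UMIs in 636 cells, and then 23.3, 47.0, 63.2 and 109 CPM. In the 4 non-erythroid cell types together *Redrum* was 4.02 CPM (2.38 to 6.88), and 0 of 189 hepatocyte-like cells held a UMI (exact 95% interval up to 1.93%). The lowest CD71 group thus stood no higher than cells outside the lineage. Both sets share cells, since 34.1% of that group fell in the named non-erythroid clusters, so part of this likeness is built in. The size of the increase from S0-low depended on the gates. *Redrum* was 6.91 times as high in S3 as in S0-low (5.62 to 8.50), and this ratio was 43.2 when antibodies were scaled within each cell, 90.7 on log10 antibody counts and 91.2 with Gaussian mixture classes. These 3 gates held 805, 609 and 638 S0-low cells against 1510.

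**Figure D2:**
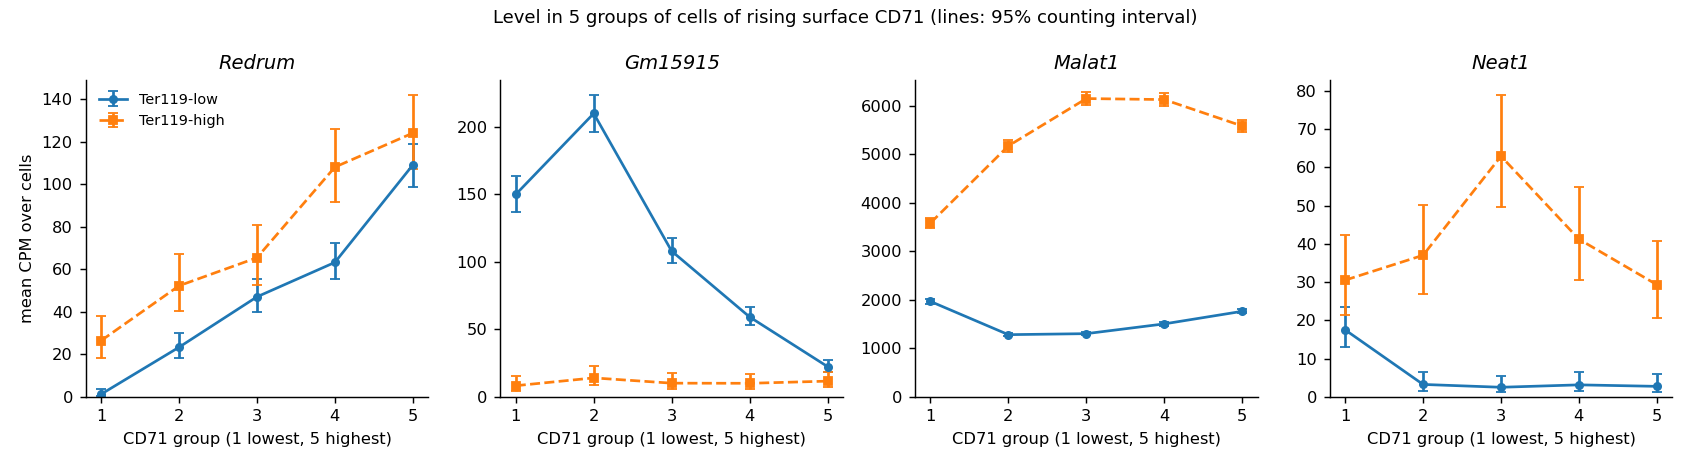
Mean CPM (vertical axes, from 0) in 5 groups of equal cell number from lowest to highest surface CD71 (horizontal axes), for Ter119-low cells (solid lines) and Ter119-high cells (dashed lines); vertical lines are 95% counting intervals. Redrum climbs with CD71 in both classes, while Gm15915 falls from the second group on in the Ter119-low cells and stays between 8.22 and 14.0 CPM in the Ter119-high cells.

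Surface CD71 and *Redrum* also moved together among mature cells. In the 5 groups of Ter119-high cells *Redrum* was 26.4, 52.2, 65.4, 108 and 124 CPM from the lowest CD71 to the highest. Globin took 70.9% of UMIs in the lowest of these groups and 31.3% in the highest, so depth for other mRNAs moved with CD71. With globin left out the same groups held 85.9, 128, 132, 196 and 193 CPM.

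The share of cells with a *Redrum* UMI followed the same course at equal total depth. Depth outside globin was not equal, since globin took 1.05% of all UMIs in S0-low, 37.6% in S3 and 64.0% in S4/S5. After each cell was thinned to 2000 UMIs, which no cell fell below, the shares in stage order were 2.85%, 11.3%, 20.6%, 23.4%, 19.1% and 7.57%. Without thinning it was 8.15% in S0-low, 57.2% in S1 (53.2 to 61.1) and 54.3% in S2 (51.5 to 57.0), so the highest share was then in S1. The 4 non-erythroid types, of which the median cell had 6304 to 13001 UMIs, gave 0.641% thinned and 2.44% unthinned, and the S0-low share lay above both.

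*Gm15915* ran the other way and was a gene of the earliest stages. It stood at 169 CPM in S0-low (161 to 178), then 76.3 CPM in S0-medium (71.0 to 82.2), 21.0 CPM in S1 (17.4 to 25.7), 9.48 CPM in S2 (7.39 to 12.2), 11.9 CPM in S3 (8.98 to 16.0) and 9.73 CPM in S4/S5 (6.73 to 13.8). The steps down to S0-medium, to S1 and to S2 were each larger than counting error, at ratios of 0.451, 0.275 and 0.452. S3, S4/S5 and S2, the lowest stages, did not differ as neighbours in order (S3 over S4/S5 1.23, 0.799 to 1.89, and S4/S5 over S2 1.03, 0.681 to 1.55). These ratios are in CPM. With globin left out S4/S5 was 2.29 times as high as S2 (1.43 to 3.69) and S3 was 1.87 times as high (1.23 to 2.83). In UMIs per cell S4/S5 was 0.533 times as high as S2 (0.373 to 0.763).

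The late level of *Gm15915* was near that of myeloid-like cells and higher than the point value of hepatocyte-like cells. The gene was at 11.5 CPM in myeloid-like cells (7.25 to 19.1), 6.55 CPM in macrophage-like cells (1.60 to 25.7) and 2.34 CPM in hepatocyte-like cells (0.806 to 9.20). After thinning, 22.1% of S0-low cells and 12.0% of S0-medium cells held a UMI, against 1.67% to 2.03% from S2 on, 1.14% of myeloid-like cells and 0% of hepatocyte-like cells. Without thinning the S0-low share was 42.8% and the S3 share 6.09%.

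Megakaryocyte-like cells were the other place where *Gm15915* was measured at length. All 248 of them gave 186 CPM (167 to 208), and the 103 that fell in S0-low gave 296 CPM (257 to 342). S0-low without the cells of named non-erythroid clusters still gave 186 CPM (177 to 197), so the S0-low level was as high without them. The cells left are not thereby shown to be erythroid, since many clusters had no name. An unnamed cluster of 491 cells had *Cd34*, *Coro1a* and *Irf8* among its top genes. Another, of 59 cells, had *Dcn*, *Lum* and *Col3a1*. How many of these cells fell in S0-low was not computed.

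Surface cKit, the receptor for stem cell factor that marks progenitors, split S0-low further. In tertiles of cKit, over the 1204 S0-low cells outside the named non-erythroid clusters, *Gm15915* was 90.5 CPM in the lowest (76.7 to 107), 206 CPM in the middle (187 to 227) and 264 CPM in the highest (247 to 282). *Redrum* ran the opposite way over the same tertiles, at 38.5, 14.4 and 6.04 CPM. The intervals of the lowest and highest tertiles did not overlap for either RNA, but they cover counting error only and not spread between cells. The share of all genes with intervals apart in this way was not computed, so nothing is read from the lack of overlap. These tertiles were chosen after the data were seen and were cut on unscaled cKit counts. In S0-low the deepest tertile of cells by UMIs also held more *Gm15915* than the shallowest (ratio 1.51) and less *Redrum* (0.384). The part of depth in the differences along cKit was not tested.

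Along CD71 in Ter119-low cells *Gm15915* was 150, 210, 108, 59.2 and 22.4 CPM from the lowest group to the highest. The lowest group, where it was below the next, held 34.1% cells of named non-erythroid clusters against 12.4% in the next. Whether those cells account for the lower value was not tested.

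*Redrum* and *Gm15915* overlapped in S0-medium, where thinned cells held them at shares of 11.3% and 12.0%. Of 1054 S0-medium cells, 8 held a UMI of each (0.759%), 111 of *Redrum* alone and 118 of *Gm15915* alone. Independent detection would put 1.35% in both. Over these cells Spearman's rho was -0.0582. In the other stages 2 to 10 cells held both, at shares near or above independence in S0-low (0.662% against 0.630%), S1 (0.654% against 0.538%) and S4/S5 (0.223% against 0.126%), and just below it in S2 and S3. At 2000 UMIs a cell most molecules go unread, so these counts describe detection and not the content of a cell.

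*Malat1* was abundant in all stages and was highest in the Ter119-high cells. It was 1561 CPM in S0-low (1533 to 1589), then 1444 CPM in S0-medium (1415 to 1475) and 1768 CPM in S1 (1726 to 1811). It then reached 3388 CPM in S2 (3342 to 3435), 5949 CPM in S3 (5869 to 6030) and 4731 CPM in S4/S5 (4658 to 4805). All neighbours in the order of level in CPM differed beyond counting error. The smallest difference was that between S0-low and S0-medium (ratio 1.08, 1.05 to 1.11). In UMIs per cell that order was reversed, with S0-medium 1.19 times as high as S0-low (1.17 to 1.22). Without the named non-erythroid clusters S0-low was 1482 CPM (1451 to 1513), an interval that overlapped that of S0-medium.

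The higher *Malat1* level of S3 was also seen per cell, although S3 cells yielded fewer UMIs. In stage order *Malat1* gave 10.7, 12.8, 15.4, 20.3, 28.6 and 18.9 UMIs per cell. The ratio of S3 over S0-low was 3.81 (3.73 to 3.90) in CPM and 2.68 (2.62 to 2.73) in UMIs per cell, and 7.08 (6.91 to 7.26) with globin left out. From S3 to S4/S5 the direction depended on the scale, with a ratio of 0.795 (0.779 to 0.812) in CPM, 0.661 (0.648 to 0.674) in UMIs per cell and 1.09 (1.06 to 1.11) with globin left out.

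**Figure D3:**
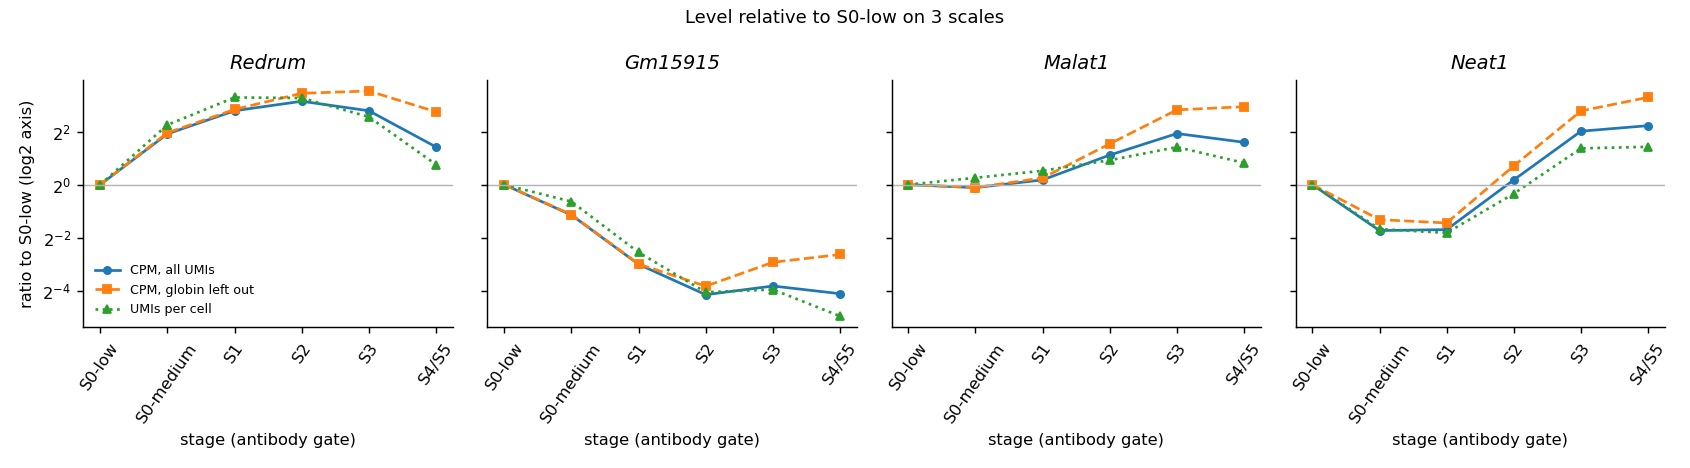
Ratio of each stage to S0-low (vertical axis, log2) over the 6 stages (horizontal axes) for CPM of all UMIs (circles), CPM with globin left out of the denominator (squares) and UMIs per cell (triangles). The scales part from S2 on, where globin grows, and for Malat1 the step from S3 to S4/S5 is 0.795 in CPM and 1.09 without globin.

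*Malat1* differed between cells of S4/S5 more than in any other stage. Of 898 S4/S5 cells, 264 (29.4%) held no *Malat1* UMI, against 36 of 838 S3 cells (4.30%), 4 of 1297 S2 cells (0.308%) and 28 of 1510 S0-low cells (1.85%). In cells thinned to 2000 UMIs the S4/S5 median was 6 UMIs with quartiles of 0 and 16, and the variance was 12.1 times the mean. That quotient was 7.06 in S3, 4.65 in S2 and 2.90 to 3.35 in the earlier stages.

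The S4/S5 cells without *Malat1* were also set apart by other readouts. Globin took 75.4% of their UMIs against 59.1% in the 634 cells with *Malat1*. The median mitochondrial share, the percent of UMIs from mt- genes, was 0.817% against 1.24%, and the median CD71 count was 190 against 328. They were not shallower, with a median of 4318 UMIs against 3840, but had 1016 UMIs outside globin against 1326. *Neat1* was read in 0 of the 264 cells and in 101 of the 634 (15.9%), and *Redrum* in 4.17% against 16.7%. *Gm15915* was read in 3.41% and 4.26%. The 36 S3 cells without *Malat1* had a globin share of 73.7% against 36.1%. The part of globin, and of the fewer UMIs outside globin, in the absence of *Malat1* was not tested.

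*Neat1* was read in few cells and was highest in the Ter119-high stages. Its level was 9.18 CPM in S0-low (7.06 to 11.9, from 87 UMIs), then 2.76 CPM in S0-medium (1.53 to 4.92, from 19 UMIs) and 2.83 CPM in S1 (1.20 to 6.18, from 10 UMIs). It was 10.4 CPM in S2 (7.75 to 13.9, from 59 UMIs), 37.2 CPM in S3 (30.7 to 44.9, from 125 UMIs) and 43.0 CPM in S4/S5 (36.0 to 51.1, from 139 UMIs). S4/S5 and S3 did not differ beyond counting error (ratio 1.15, 0.898 to 1.48), nor did S2 and S0-low (1.14, 0.785 to 1.64) or S1 and S0-medium (1.03, 0.430 to 2.45). The ratio of S4/S5 over S3 changed sides with the setting, at 0.718 (0.540 to 0.955) with antibodies scaled within each cell and 1.43 (1.11 to 1.85) with globin left out. With globin left out S2 was also above S0-low (1.64, 1.03 to 2.60).

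Other cell types held more *Neat1* than any early erythroid stage, which bears on S0-low. Macrophage-like cells gave 83.7 CPM (58.0 to 121), megakaryocyte-like cells 61.5 CPM (48.7 to 77.7), myeloid-like cells 44.4 CPM (33.4 to 58.8) and hepatocyte-like cells 23.0 CPM (15.8 to 34.3). S0-low without the cells of these clusters gave 5.79 CPM (3.91 to 8.46, from 41 UMIs). Along CD71 in Ter119-low cells *Neat1* was 17.5 CPM in the lowest group and 2.49 to 3.23 CPM in the other groups. S3 was 4.05 times as high as S0-low (2.98 to 5.51), and 6.44 times (4.31 to 9.61) without those clusters.

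*Malat1* also varied with cell type, with 4570 CPM in megakaryocyte-like cells (4454 to 4690), 4442 CPM in macrophage-like cells (4236 to 4658), 2695 CPM in myeloid-like cells (2605 to 2789) and 1436 CPM in hepatocyte-like cells (1378 to 1497). S0-low without these clusters gave 1482 CPM. *Malat1* and *Neat1* tended to be read in the same S4/S5 cells, where Spearman's rho was 0.245 over 898 thinned cells, against 0.0624 in S0-low and 0.104 in S3. Other pairs in S4/S5 also had positive values, with 0.337 for *Malat1* and mt- UMIs, 0.129 for *Redrum* and *Malat1* and 0.0921 for *Redrum* and *Neat1*. *Gm15915* gave -0.0203 with *Malat1* and -0.0373 with *Neat1*. Thinning was on all UMIs, of which globin took 64.0% in S4/S5. The part of globin in these values was not tested.

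The background for these steps is a lower level of most genes in CPM in the stages rich in globin. Over 8254 genes with at least 200 UMIs in the 6 stages, 6.34% were at least 2-fold higher in S3 than in S0-low, and 3 of the 4 RNAs (*Redrum*, *Malat1* and *Neat1*) were. At most 0.5 times as high were 68.0% of all genes and 1 of the 4, *Gm15915*. The median gene had a ratio of 0.340. *Redrum* lay at percentile 98.3, *Neat1* at 97.1, *Malat1* at 96.8 and *Gm15915* at 4.04 of the ratios, and nothing is read from these places because the RNAs were chosen with this pattern known.

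From S3 to S4/S5, 1.57% of the genes were at least 2-fold higher and 0 of the 4 RNAs were, and 40.2% were at most 0.5 times as high, among them 1 of the 4, *Redrum*. The median gene had a ratio of 0.554 in CPM and 0.920 with globin left out. In CPM *Malat1* at 0.795 and *Neat1* at 1.15 stood above the median gene, and *Redrum* at 0.388 below it. *Gm15915* was 0.814, with an interval (0.530 to 1.25) that held the value of the median gene. Nothing is read from these places either, because the RNAs were chosen with their levels known.

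**Figure D4:**
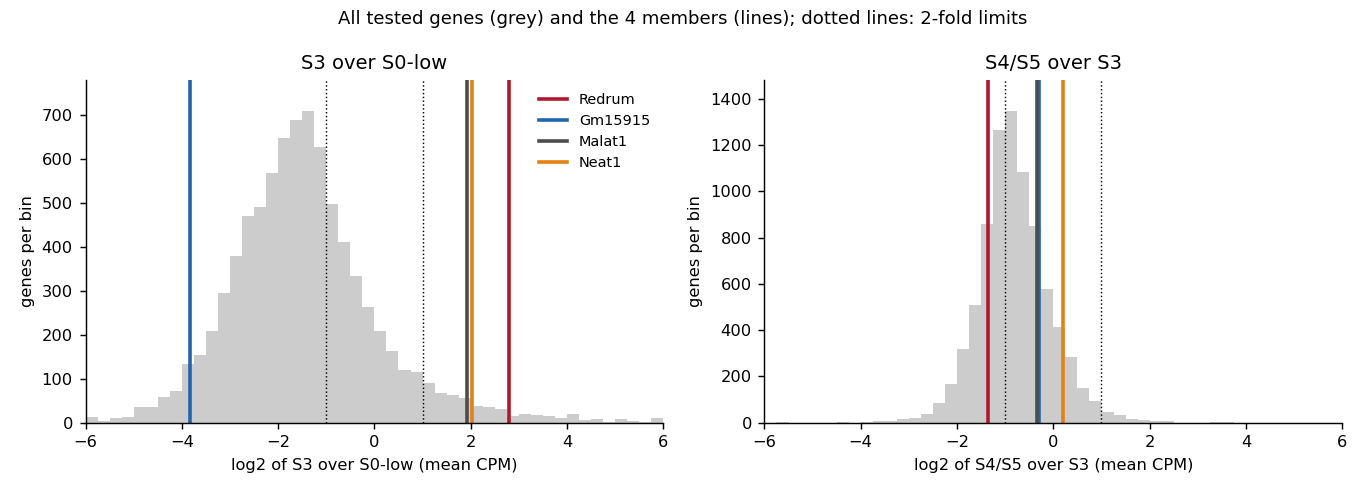
Number of genes (vertical axes) by log2 ratio of mean CPM (horizontal axes, bins of 0.25, with values beyond 6 in either direction placed in the end bins) for S3 over S0-low and S4/S5 over S3. Grey bars are all tested genes, coloured lines the 4 RNAs and dotted lines the 2-fold limits. On the left Redrum, Malat1 and Neat1 lie right of the upper limit and Gm15915 lies far to the left.

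The mitochondrial share served as a check on damaged cells, since a cell that leaks its cytoplasm keeps mitochondrial and nuclear RNA. In stage order the median share was 4.41%, 4.63%, 5.05%, 4.34%, 2.32% and 1.08%. *Malat1* and *Neat1* were highest in S3 and S4/S5, the stages in which this share was lowest. The share is taken over all UMIs, so globin lowers it. Globin took 1.05% of UMIs in S0-low, 37.6% in S3 and 64.0% in S4/S5. The share over UMIs outside globin was not computed, and the part of globin in the lower share was not tested.

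Within S2 and S3 *Malat1* and *Neat1* were lower in the tertile of highest mitochondrial share than in the lowest. The tertiles were cut on the share of all UMIs, globin included. The part of globin or of damage in these differences was not tested. Over tertiles of the share *Malat1* was 4686, 2851 and 2624 CPM in S2 and 6821, 6327 and 4695 CPM in S3, from the lowest to the highest. *Neat1* was 26.2, 1.95 and 3.08 CPM in S2 and 58.9, 41.5 and 11.2 CPM in S3. In S0-low *Neat1* went the other way, at 6.03, 7.37 and 14.1 CPM (highest over lowest 2.35, 1.23 to 4.47), and *Malat1* was 1504, 1560 and 1618 CPM. In S4/S5 the order also turned, with *Malat1* at 2791, 4407 and 7001 CPM and *Neat1* at 20.5, 48.7 and 59.8 CPM. *Redrum* was higher with a higher share in S3 (76.3, 120 and 133 CPM) and in S4/S5 (14.1, 47.5 and 66.3 CPM). *Gm15915* in S0-low was 191 and 200 CPM in the lower tertiles and 117 CPM in the highest.

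**Figure D5:**
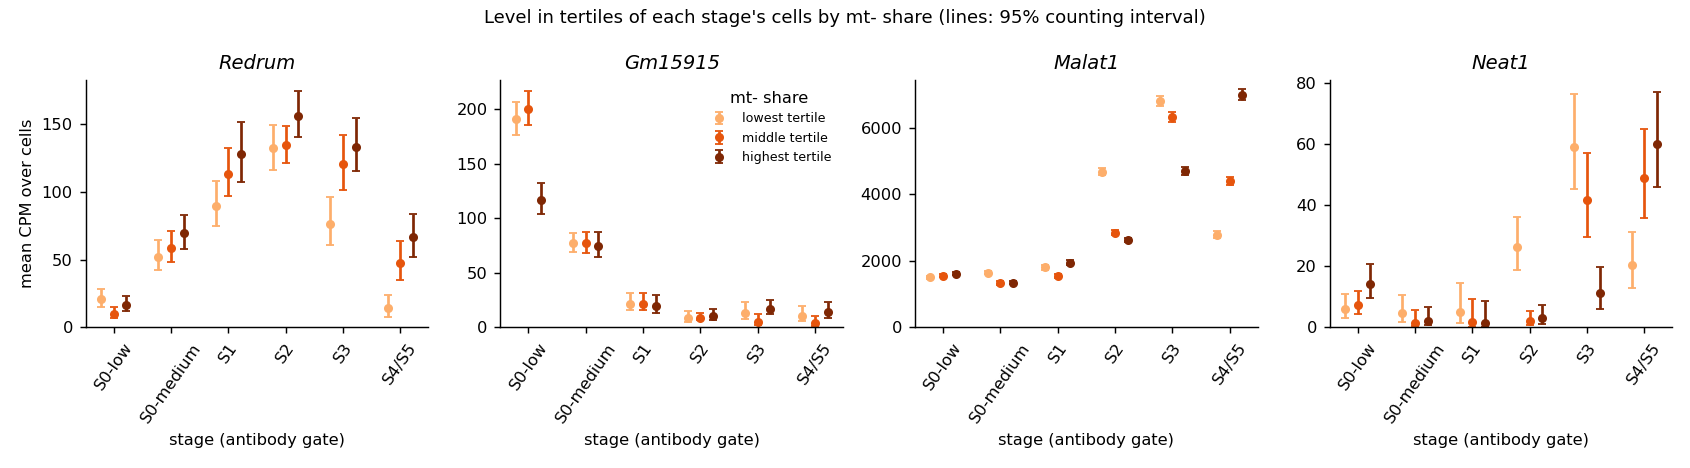
Mean CPM (vertical axes, from 0) in tertiles of each stage's cells by mitochondrial share (light to dark, lowest to highest) over the 6 stages (horizontal axes); lines are 95% counting intervals. Malat1 goes down with the share in S3, from 6821 to 4695 CPM, and up with it in S4/S5, from 2791 to 7001 CPM.

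The increase of *Neat1* depended on which cells were compared. Between the lowest tertiles of mitochondrial share S3 was 9.78 times as high as S0-low (5.40 to 17.7), between the middle tertiles 5.63 times (3.31 to 9.55), and between the highest tertiles 0.791 times (0.417 to 1.50). For *Malat1* the same ratios were 4.54, 4.06 and 2.90, and for *Redrum* 3.65, 11.9 and 7.99.

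In a fixed window of 2% to 4% mitochondrial share, which held 71 to 547 cells of each stage, *Malat1* was 1453, 1615, 1815, 4139, 5907 and 6345 CPM from S0-low to S4/S5. *Neat1* was 4.20 CPM in S0-low, 14.9 CPM in S2, 30.0 CPM in S3 and 57.8 CPM in S4/S5, the last from 18 UMIs. *Redrum* was 19.2, 54.3, 71.3, 136, 126 and 97.4 CPM, and *Gm15915* 200, 85.3, 18.8, 8.10, 9.69 and 20.8 CPM. In this window *Malat1* was lower in S0-low than in S0-medium, the reverse of their order over all cells, and *Neat1* in S1 was 5.50 CPM from 2 UMIs. The lower *Malat1* level of S4/S5 was absent (ratio to S3 1.07, 1.03 to 1.13) and that of *Redrum* was within counting error (0.773, 0.537 to 1.11). The 91 S4/S5 cells in this window were those of high share for their stage. The window was cut on the share of all UMIs, of which globin took 1.05% in S0-low, 37.6% in S3 and 64.0% in S4/S5. It thus did not hold the share outside globin equal between stages, and the part of damage was not tested.

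The cells that the limit of 9% treats as damaged were read as a group of their own. Of 481 such cells, 464 passed the limits on genes and were not called doublets. They had a median share of 12.0% and 3912 UMIs. Among those gated as S0-low (159 cells), *Malat1* was 1928 CPM (1823 to 2039) against 1586 CPM (1558 to 1614) in S0-low cells under the limit. *Neat1* was 24.0 CPM (13.6 to 40.9) against 9.79 CPM (7.62 to 12.5). *Gm15915* was lower, at 40.6 CPM (26.1 to 61.4) against 167 CPM (159 to 176), and *Redrum* was 14.5 CPM (5.77 to 30.9) against 14.9 CPM (12.2 to 18.1). Removed cells gated as S0-medium, S1 and S2 (69, 29 and 35 cells) gave *Malat1* levels of 1675, 2190 and 3497 CPM, against 1440, 1769 and 3390 CPM in cells of the same gates under the limit. The interval of the removed cells held the value under the limit in S2 (3174 to 3848) and lay above it in S0-medium (1519 to 1843) and S1 (1908 to 2507). In the same 3 gates *Gm15915* was 65.8, 20.3 and 5.80 CPM in removed cells, against 77.0, 20.9 and 9.47 CPM under the limit. *Neat1* was 2.15, 0 and 5.53 CPM against 2.79, 2.82 and 10.4 CPM, from at most 2 UMIs per removed group. The removed cells were also shallower, with medians of 4132, 3679, 3358 and 3498 UMIs in the gates S0-low, S0-medium, S1 and S2. Cells under the limit had 6182, 10282, 10152 and 6034. In the tertile of fewest UMIs of the kept cells, *Malat1* was 1891, 2023, 2512 and 4656 CPM in these stages. The part of depth in the differences between removed and kept cells was not tested. Removed cells gated as S3 or S4/S5 were too few to describe, so this check does not cover those stages.

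Levels also moved with the depth of a cell. The highest tertile of UMIs held less *Malat1* in CPM than the lowest in every stage, at ratios from 0.477 in S2 to 0.712 in S3. *Neat1* did likewise, at ratios from 0.103 in S1 to 0.554 in S0-low. *Gm15915* was higher in the deeper cells of S0-low (1.51, 1.32 to 1.72), S0-medium (2.44, 1.88 to 3.16) and S1 (2.36, 1.28 to 4.33). *Redrum* was lower in the deeper cells of S0-low (0.384, 0.250 to 0.588), S0-medium (0.330, 0.265 to 0.410), S1 (0.484, 0.392 to 0.598) and S4/S5 (0.343, 0.229 to 0.513). Its ratios in S2 and S3 were 0.905 (0.773 to 1.06) and 0.955 (0.760 to 1.20). The part of depth in the differences between stages was not tested.

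*Frmd8*, the next gene on the *Neat1* side of the *Malat1* and *Neat1* pair, did not share their course. It was 0.250 times as high in S3 as in S0-low (0.165 to 0.377), whereas *Malat1* and *Neat1* were 3.81 and 4.05 times as high.

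The genes with the most similar profiles were sought among 6246 genes, by the root mean square difference of centred log2 levels over the 6 stages. Nearest to *Redrum* were *Cldn13*, a claudin (difference 0.137), *Uros*, an enzyme of heme synthesis (0.179), and *Abcb10*, a mitochondrial transporter (0.209). *Cldn13* went from 63.0 CPM at S0-low up to 396 CPM at S2 and back to 153 CPM at S4/S5. Nearest to *Gm15915* were *Myb*, a progenitor transcription factor (0.214), *Ifngr1*, a chain of the interferon gamma receptor (0.231), and *Kit*, the mRNA of the cKit receptor (0.267). *Myb* went from 150 CPM at S0-low down to 8.01 CPM at S2.

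Nearest to *Malat1* were *Map4k5*, a kinase (0.0493), *Tcf7l2*, a transcription factor of Wnt signalling (0.0755), and *Abtb1* (0.0886). *Map4k5* went from 10.9 CPM at S0-low up to 67.3 CPM at S3 and to 50.6 CPM at S4/S5. Nearest to *Neat1* were *Dyrk3*, a kinase (0.136), *Pnrc1*, a nuclear receptor coactivator (0.147), and *Serinc1* (0.175). These are likenesses over 6 points of 1 library.

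Other noncoding RNAs of the same classes were mostly lower in S3 than in S0-low. Of 19 listed snoRNA hosts 8 had a row and 4 passed the 200 UMIs, and all 4 were at most 0.5 times as high, beside 68.0% of all genes. *Snhg6* went from 59.0 to 7.15 CPM (ratio 0.121), *Snhg12* from 31.5 to 4.27 CPM (0.136), *Snhg20* from 29.7 to 6.36 CPM (0.214) and *Epb41l4aos* from 35.4 to 7.35 CPM (0.208). The 4 core proteins of box C/D particles did the same, with ratios of 0.188 for the methyltransferase *Fbl*, 0.220 for *Nop56*, 0.138 for *Nop58* and 0.231 for *Nhp2l1*.

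Among 6 nuclear RNAs tested, *Malat1* and *Neat1* were the 2 that passed the upper limit, beside 6.34% of all genes. Both were chosen with their levels known, so nothing is read from this count. At most 0.5 times as high were 3 of the 6, beside 68.0% of all genes. *Kcnq1ot1* and *Meg3*, both transcribed from imprinted loci, had ratios of S3 over S0-low of 0.144 and 0.0651, *Pvt1* one of 0.180, and *Xist*, the RNA that silences the X chromosome, one of 0.845 (0.790 to 0.905). Of the remaining RNAs listed for blood or fetal liver, *H19*, an imprinted fetal RNA, stood at 0.147 and *Mir17hg*, the host of a microRNA cluster, at 0.315. For *Meg3* and *H19* the difference lay between S0-low, a mixed stage, and S0-medium. *Meg3* was 235 CPM in S0-low, 10.6 CPM in S0-medium and 15.3 CPM in S3, and *H19* was 310, 31.5 and 45.8 CPM. The part of non-erythroid cells in these 2 ratios was not tested.

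Genes of proteins of the bodies that hold *Malat1* and *Neat1* were read beside a background of 68.0% of all genes at most 0.5 times as high from S0-low to S3, and nothing is read from counts near it. Of 7 paraspeckle proteins 0 were at least 2-fold higher and 5 were at most 0.5 times as high, with a median ratio of 0.394. *Nono* and *Sfpq*, which bind *Neat1*, were 0.258 and 0.475 times as high, and *Hnrnpk* was 0.907 times. Of 7 nuclear speckle proteins 4 were at most 0.5 times as high, with a median of 0.423. *Srrm2*, a scaffold of speckles, was 0.290 times as high and *Sf3b1* 0.708 times. Of 10 factors of nonsense-mediated decay, which degrades transcripts such as those of snoRNA hosts, 7 were at most 0.5 times as high, with *Upf1* at 0.438 and *Smg5* at 0.891 (0.684 to 1.16). These medians stand beside 0.340 for all genes.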

How the data were processed

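Per the labels and the study's methods, reads of the 10x 3′ cDNA library were mapped to mm10 (GRCm38) with Cell Ranger, and the authors deposited UMI counts per gene and cell and antibody counts per cell, both without normalization. Cells with 300 to 5000 genes and at most 9% mt- UMIs were kept and 128 doublets called by Scrublet left out, which left 7244 of 7863 cells. Antibodies were scaled by the centred log ratio across cells and cut by k-means. Levels are means over cells of CPM, with gamma 95% intervals for weighted counts. Ratios have log-normal intervals, and shares exact Clopper-Pearson intervals. Intervals cover counting error only, and no test was made with 1 library. Ratios were tested on simulated counts with Poisson error, the model behind the intervals, so that test did not cover spread between cells. In the real thinned cells the variance of *Malat1* was 2.90 to 12.1 times the mean. Clusters were named from 3 or more fixed markers among the top 10 genes. The text names the listed RNAs, some genes of the fixed lists, and the 3 nearest profiles of each RNA (500 UMIs or more, pseudocount of 10 CPM). Genes named from the lists were not always the highest-expressed. *Srsf2* (S3 over S0-low 0.523) and *Upf3b* (0.640) had the most UMIs of the speckle and decay lists and were not named above. The RNAs and the lists were chosen with earlier results of these data known. Alternatives changed the gates, unit, denominator, filters, thinning and groups. Python 3.11.15, scanpy 1.11.5, scikit-learn 1.9.0, numpy 2.4.6 and scipy 1.17.1 were used.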

Additional observations from a re-analysis of the deposited data

How the results depend on the processing

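With 1 library, no replicate could be left out. No paired analysis was possible because no group had a second sample. The ratio of S3 over S0-low kept its direction for each of the 4 RNAs under all 14 alternatives run. Its values outside the main counting interval follow, for Redrum (6.91), Gm15915 (0.0706), Malat1 (3.81) and Neat1 (4.05). With antibodies scaled within each cell Redrum was 43.2, Gm15915 0.0533 and Malat1 3.38. On log10 antibody counts Redrum was 90.7, Malat1 2.67 and Neat1 1.85, under 2-fold. With Gaussian mixture classes Redrum was 91.2, Malat1 2.98 and Neat1 2.33. In UMIs per cell Malat1 was 2.68 and Neat1 2.59. With globin left out of the denominator Redrum was 11.6, Gm15915 0.131, Malat1 7.08 and Neat1 6.89, and with mt- genes left out as well 11.6, 0.131, 7.05 and 6.86. Without the mt- limit Malat1 was 3.68. At a limit of 5% Redrum was 5.17, Malat1 4.29 and Neat1 6.88. Without the lineage limit Redrum was 8.76, Gm15915 0.0959, Malat1 2.81 and Neat1 1.88, under 2-fold. Without named non-erythroid clusters Redrum was 5.60, Malat1 4.02 and Neat1 6.44. In cells of 2% to 4% mt- share, an alternative added after the data were seen, Gm15915 was 0.0486, Malat1 4.07 and Neat1 7.15. The ratio of S4/S5 over S3 for Malat1 turned to 1.09 with globin left out, to 1.08 with mt- genes left out as well and to 1.07 in cells of 2% to 4% mt- share. For Neat1 and Gm15915, as for Malat1, that ratio kept its side of 1 in 11 of 14 alternatives, with ranges of 0.718 to 1.93 for Neat1 and 0.497 to 2.14 for Gm15915. The 523 genes at least 2-fold higher in S3 became 961 with globin left out, 958 with mt- genes left out as well and 887 with no minimum of UMIs. The 5616 genes at most 0.5 times as high became 3710 and 3715 with those denominators and 3472 in cells of 2% to 4% mt- share. Without thinning, the shares of cells with a UMI were higher for each of the 4 RNAs in S0-low and S3, and in 3 groups in place of 5 the rise of Redrum along CD71 in Ter119-low cells was 13.9 in place of 89.3. The cause of these changes was not tested. Depth limits Neat1 most, with 10 UMIs in S1 and 19 in S0-medium.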
